A study of Rattus norvegicus with 12 samples.

Results

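The genes described here mark the lining of blood vessels and its growth signals in the rat uterus: the junction genes Cldn5, Cdh5 and Pecam1, the endothelial surface genes Emcn and Plvap, the growth factor Vegfa with its receptors Kdr and Flt1, and the angiopoietin Angpt2 with its receptor Tek. They were taken by symbol: a gene was used where an array probe set carried its symbol and no other. All 10 had exactly 1 such probe set, out of 14506 genes measured with a single symbol. All 10 also passed the limit on dim genes, set on the mean over all 12 arrays, and were tested among 10154 genes. Uteri came from ovariectomized young adult Lewis rats, which lack ovarian estrogen, in 4 groups of 3 rats. The vehicle rats received DMSO. The E2 rats received 17β-estradiol, an estrogen, at 4 µg per kg per day. The 3-MC rats received 3-methylcholanthrene, a polycyclic hydrocarbon that activates the aryl hydrocarbon receptor, at 15 mg per kg per day, and the E2+3-MC rats received both at these doses. Dosing lasted 3 days, uteri were collected 24 h after the last dose, and total RNA of the whole organ was hybridised to 1 Affymetrix array per rat. The design asks how estradiol changes uterine RNA, whether 3-MC acts by itself, and whether it alters the response to estradiol.

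Endothelial cells are held together by adherens junctions, in which VE-cadherin (Cdh5) joins neighbouring cells, and by tight junctions, in which claudin-5 (Cldn5) seals the gap. Vegfa, made mostly by the cells around a vessel, acts through Kdr, the main signalling receptor, while Flt1 binds the same ligand tightly and also acts as a decoy. Tek (Tie2) receives the stabilising ligand Angpt1 and its context-dependent partner Angpt2. In the uterus, estrogen is known for early vascular leakage and fluid uptake, followed by growth of the organ.

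Because most of these genes moved with estradiol while Plvap did not fall, their promoters are shown for comparison. The table of promoters from RefSeq (rat build GRCr8) held 6 of the 10 genes. The 250 bases before the start are printed for Emcn, Kdr and Cldn5, which were lower with estradiol alone, and for Plvap, which was not. Capitals mark matches on either strand to 3 short motifs. AGGAA or TTCCT is the core bound by ETS factors, which are common regulators of endothelial genes. GGTCA or TGACC is only a part of an estrogen response element and is called an estrogen response core here. GCGTG or CACGC is the core of a xenobiotic response element, bound by the aryl hydrocarbon receptor. No matches overlapped in these windows.
Emcn, chr2:228564289-228564538, plus strand: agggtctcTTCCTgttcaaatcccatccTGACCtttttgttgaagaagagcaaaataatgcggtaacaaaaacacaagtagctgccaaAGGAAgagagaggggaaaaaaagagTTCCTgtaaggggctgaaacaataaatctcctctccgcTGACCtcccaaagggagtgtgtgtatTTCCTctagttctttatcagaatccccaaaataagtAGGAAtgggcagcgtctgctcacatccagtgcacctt
Kdr, chr14:32571813-32572062, plus strand: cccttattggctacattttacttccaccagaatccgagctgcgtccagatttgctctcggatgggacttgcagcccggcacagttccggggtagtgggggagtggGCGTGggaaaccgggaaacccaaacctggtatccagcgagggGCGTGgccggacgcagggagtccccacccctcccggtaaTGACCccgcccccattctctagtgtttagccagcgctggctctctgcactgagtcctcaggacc
Cldn5, chr11:95718599-95718848, minus strand: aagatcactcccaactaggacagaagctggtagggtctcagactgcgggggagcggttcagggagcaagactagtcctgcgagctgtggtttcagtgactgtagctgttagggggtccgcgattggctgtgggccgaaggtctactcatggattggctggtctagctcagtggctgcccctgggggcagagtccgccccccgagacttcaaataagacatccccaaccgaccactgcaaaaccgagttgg
Plvap, chr16:18231280-18231529, minus strand: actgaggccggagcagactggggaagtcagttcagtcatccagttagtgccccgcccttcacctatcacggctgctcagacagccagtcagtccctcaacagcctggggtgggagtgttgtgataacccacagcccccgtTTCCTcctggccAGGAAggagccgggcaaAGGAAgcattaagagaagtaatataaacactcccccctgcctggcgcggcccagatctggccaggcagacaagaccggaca
The Emcn window held 5 ETS cores and 2 estrogen response cores. The Kdr window held 2 xenobiotic response cores and 1 estrogen response core. The Plvap window held 3 ETS cores and neither of the other motifs, and the Cldn5 window held none of the 3. Not printed are the windows of Flt1 and Vegfa, which were also lower with estradiol alone. The Flt1 window held 2 ETS cores, 1 xenobiotic response core and no estrogen response core. For Vegfa, 1 window held only 1 ETS core and another held only 1 estrogen response core. Among 33469 RefSeq promoter windows of the same length, 61% held an ETS core, 35.4% an estrogen response core and 25.9% a xenobiotic response core. These matches describe the letters and are not binding sites.

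Each array has 1 intensity per probe set, on a linear scale whose between-array normalization is not given in the sources used here. Median intensities ran from 86.3 to 124 over the 12 arrays. Vehicle rat 1 stood apart: the interquartile range of its log2 values was 2.70, against 1.87 to 2.35 on the other arrays. All 10 genes had their highest intensity of the 12 arrays in this rat, and 2 of the 10 did after quantile normalization, which gives all arrays the same distribution. Results are therefore given on the deposited scale, after quantile normalization, and without this rat where that matters. Markers of the expected tissue were present: all 13 measured epithelial, all 11 stromal and all 9 smooth muscle markers lay above the limit for dim genes in every group. A difference below is on the scale of log2(intensity + 16), with the standard error (SE) of limma's fit to all 12 arrays, and a gene was called changed at an adjusted p under 0.05, corrected over all 10154 genes. In a whole organ, fewer endothelial cells and less RNA per endothelial cell cannot be told apart.

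Estradiol without 3-MC lowered 8 of the 10 genes. Cldn5, Cdh5, Kdr and Emcn fell the most, to 46.1%, 49.3%, 49.6% and 49.7% of the vehicle level on this scale, and Tek, Vegfa, Flt1 and Angpt2 fell less. Pecam1 and Plvap, a general endothelial adhesion molecule and a component of the diaphragms of leaky capillaries, did not pass the test. Of all genes tested, 9.44% were called lower and 8.7% higher in this comparison. The median difference was -0.80 over the 10 genes and -0.11 over all genes. In all 8 genes called, each E2 rat lay below each vehicle rat, which held downward for 17.1% of all genes.

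**Figure D1:**
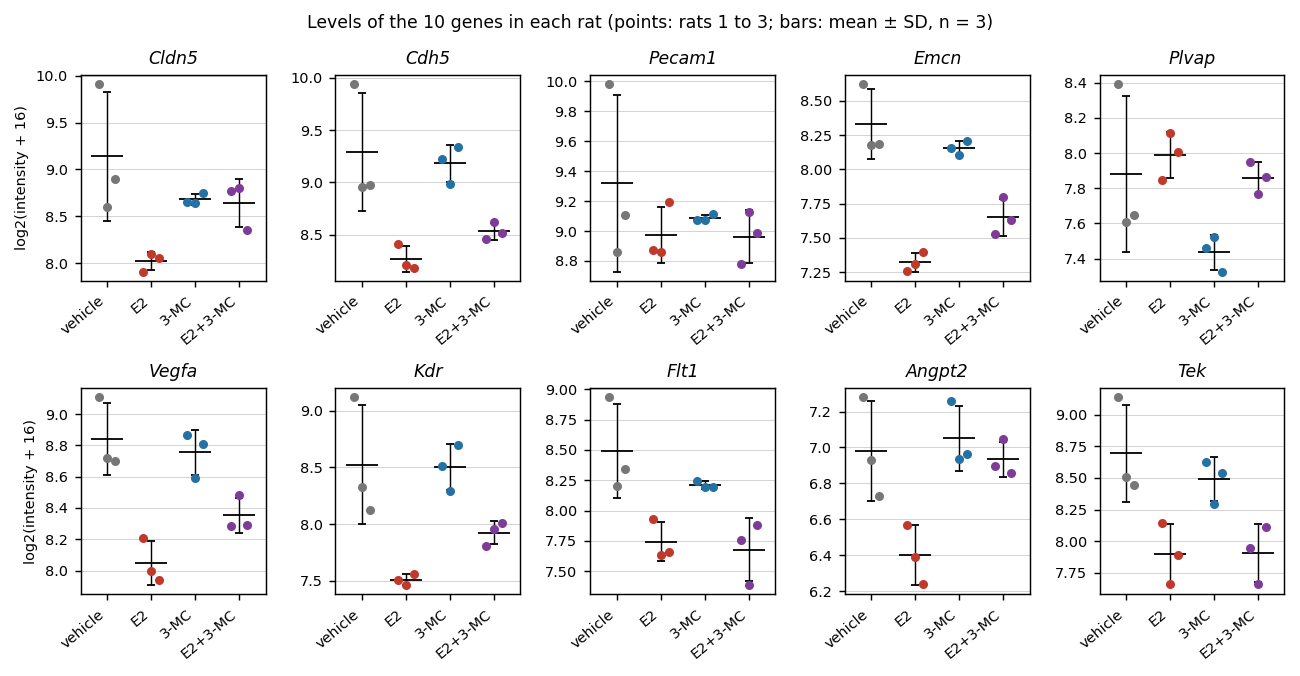
Level of each of the 10 genes in each rat, as log2(intensity + 16), by treatment group. Points are the 3 rats of a group, in order of their number, and bars give the mean ± SD. In 8 panels the 3 E2 points sit below the 3 vehicle points, and the first vehicle point is the highest in every panel.

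Cldn5 intensity was 947, 373 and 461 in the vehicle rats, 224, 257 and 250.2 with E2, 385, 383 and 415 with 3-MC, and 421, 430.4 and 309.9 with both. The E2 rats were the lowest 3 of the 12, and the other groups overlapped. Cldn5 fell by 1.12 ± 0.26 (SE, n = 3 rats per group, adjusted p = 0.00678) with E2 against vehicle, which is 2.17-fold. Without vehicle rat 1 the difference was -0.73 (adjusted p = 0.00266).

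Cdh5 intensity was 967, 480.5 and 488 with vehicle, 324, 281 and 275 with E2, 584, 492 and 630.1 with 3-MC, and 335, 377 and 351 with both. The 6 rats given estradiol lay below the 6 that were not, with the E2 rats lowest, and the vehicle and 3-MC rats overlapped. Cdh5 fell by 1.02 ± 0.23 (SE, adjusted p = 0.00581) with E2. Without vehicle rat 1 it was lower by -0.70 (adjusted p = 0.00246).

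Pecam1, which joins endothelial cells and is also carried by platelets and leukocytes, had intensities of 997, 449 and 536 with vehicle and 452, 449 and 569 with E2. The values were 524, 523 and 538 with 3-MC and 423, 542 and 491 with both. Apart from vehicle rat 1, all 4 groups overlapped. The difference with E2 was -0.34 ± 0.24 (SE, 95% interval -0.85 to 0.17, adjusted p = 0.348), and it was -0.01 without vehicle rat 1 (adjusted p = 0.970).

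Emcn, a sialomucin of capillary and venous endothelium, measured 378, 274 and 275 with vehicle, 137, 142 and 152 with E2, 268, 259 and 279.6 with 3-MC, and 169, 206 and 182 with both. All 6 rats given estradiol were below all 6 others, and those given estradiol alone were the lowest 3. Emcn fell by 1.01 ± 0.18 (SE, adjusted p = 0.000872), the lowest adjusted p among the 10 genes.

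Plvap intensity was 320.1, 179 and 185 with vehicle, 214, 261 and 241 with E2, 159.9, 168 and 144 with 3-MC, and 231, 202 and 217 with both. The 3-MC rats were the lowest 3 of the 12, and with vehicle rat 1 set aside every rat given estradiol lay above every rat that was not. The difference with E2 was 0.11 ± 0.21 (SE, adjusted p = 0.768). Without vehicle rat 1 it was 0.36 (adjusted p = 0.0901).

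Among the ligand and its receptors, Vegfa intensity was 536, 405 and 399 with vehicle, 279.8, 239.5 and 229.8 with E2, 451, 369.7 and 432 with 3-MC, and 295, 342 and 298 with both. The rats given estradiol were again the lower 6. Vegfa fell by 0.79 ± 0.18 (SE, adjusted p = 0.00647).

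Kdr intensity was 539.8, 306 and 262 with vehicle, 166, 161 and 172 with E2, 350.1, 298 and 399 with 3-MC, and 208, 232 and 242 with both. The order was the same as for Emcn: E2 lowest, then both compounds, then the overlapping vehicle and 3-MC groups. Kdr fell by 1.01 ± 0.23 (SE, adjusted p = 0.00499), or by 0.72 without vehicle rat 1 (adjusted p = 0.00223).

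Flt1 measured 473, 279 and 309 with vehicle, 228, 183 and 186 with E2, 288, 277 and 277 with 3-MC, and 200.4, 151 and 220.4 with both. The E2 and E2+3-MC rats overlapped, and all 6 lay below the rats not given estradiol. Flt1 fell by 0.75 ± 0.21 (SE, adjusted p = 0.0209), a call that was lost without E2 rat 2 (adjusted p = 0.0812) or E2 rat 3 (adjusted p = 0.0874).

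On the angiopoietin axis, Angpt2 intensity was 139, 106 and 90.3 with vehicle, 79.0, 67.9 and 59.6 with E2, 137, 106 and 109 with 3-MC, and 103, 116 and 99.9 with both. Only the E2 group stood apart, and the other 3 groups overlapped. The E2 mean of 6.40 ± 0.17 (SD, n = 3) on the log2 scale lay under the limit for dim genes of 6.44, so Angpt2 passed that limit through the other 3 groups. Leaving it aside, 7 of the other 9 genes were called lower with E2. Angpt2 fell by 0.58 ± 0.19 (SE, adjusted p = 0.0462), or by 0.37 after quantile normalization (adjusted p = 0.0180). On the deposited scale this call was kept in 2 of the 12 fits that left out 1 rat, with adjusted p from 0.0250 to 0.188.

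Tek measured 548, 347 and 332 with vehicle, 266, 186 and 221 with E2, 380.3, 298 and 357 with 3-MC, and 231, 186 and 261 with both. The E2 and E2+3-MC rats overlapped and lay below the other 6. Tek fell by 0.80 ± 0.22 (SE, adjusted p = 0.0182), a call lost without E2 rat 2 (adjusted p = 0.0928) or E2 rat 3 (adjusted p = 0.0670). After quantile normalization the same 8 genes were called lower with E2, where 19.4% of all genes were.

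Other genes of these pathways moved in part with them. Of 5 VEGF ligands tested, Vegfa and Vegfb (-0.82 ± 0.21) were called lower and none higher. Of 5 VEGF receptors and co-receptors, Kdr and Flt1 were called and Flt4, Nrp1 and Nrp2 were not. All 4 tested genes of the angiopoietin and Tie axis were lower: Angpt2, Tek, the other ligand Angpt1 (-0.82 ± 0.19) and the co-receptor Tie1 (-0.93 ± 0.20). Of 14 endothelial Notch and tip cell genes, 3 were lower: the tip cell ligand Dll4 (-1.23 ± 0.24), the target Heyl (-1.06 ± 0.30) and the receptor Notch1 (-0.79 ± 0.19).

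Of 15 endothelial transcription factors, 6 were lower and 2 higher. The ETS factor Erg (-1.02 ± 0.22), Bcl6b (-0.86 ± 0.25) and the flow-responsive Klf2 (-0.85 ± 0.21) fell, and Klf4, which epithelium also expresses, rose by 1.61 ± 0.30. Of 27 further endothelial markers, 11 were lower and none higher, with a list median of -0.65. Adgrf5 (-1.17 ± 0.22), Cyyr1 (-1.14 ± 0.18) and the sphingosine receptor S1pr1 (-0.96 ± 0.21) fell the most. After quantile normalization 15 of these 27 markers were lower and 3 higher.

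Other junction and adhesion genes, among them the endothelial marker Esam, moved both ways, with 4 of 25 higher and 4 lower. After quantile normalization 6 of the 25 were higher and 11 lower. The epithelial claudin Cldn7 (1.72 ± 0.28), the junction molecule F11r (1.33 ± 0.28) and the gap junction gene Gja1 (1.25 ± 0.36) rose, and the scaffold Tjp1 fell by 1.09 ± 0.22. Of 19 hypoxia response genes, which include many carried by other cells, 4 rose and none fell on the deposited scale. They were Ldha (1.30 ± 0.29), the glucose carrier Slc2a1 (1.20 ± 0.25), the vasodilator peptide gene Adm (1.02 ± 0.19) and Pgk1 (0.99 ± 0.27). After quantile normalization 7 of the 19 rose and 3 fell. The share of all genes called higher with E2 after this normalization is not given. Counts of risen genes in the lists after it cannot be set against all genes. Vegfa, itself a known hypoxia target, fell in the same rats.

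Among 11 inhibitors of angiogenesis, Cxcl10 (0.94 ± 0.27) and Adamts1 (0.90 ± 0.23) rose and Timp3 fell by 0.94 ± 0.26. Of 8 endothelial activation genes, the endothelin gene Edn1 rose by 0.66 ± 0.22 and none fell. After quantile normalization 1 of the 8 rose and 1 fell. Of 6 lymphatic markers, Ccl21 (-1.55 ± 0.29) and Reln (-0.98 ± 0.21) were lower. Of 12 pericyte and mural cell genes, Rgs4 rose by 0.92 ± 0.28, and Angpt1 and Notch3 (-0.63 ± 0.19) fell.

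Markers of other cell types moved in the same comparison. Of 11 stromal markers 2 were higher and 1 lower, or 2 and 4 after quantile normalization. Of 9 smooth muscle markers 2 were higher and none lower, or 3 and 1 after quantile normalization. Of 13 epithelial markers, 9 were higher and none lower, or 10 and 1 after quantile normalization. Their summed intensity was 4697 to 9911 in the vehicle rats and 16747 to 20050 in the E2 rats. Macrophage markers were higher for 5 of 12 and lower for none, with sums over 14 measured genes of 2564 to 8027 against 6289 to 8752, which overlap. All 3 tested blood markers were lower, among them Hbb (-2.24 ± 0.44), and the sum over 5 measured markers was 4257 to 8757 with vehicle against 882 to 2592 with E2. Of 8 adipocyte markers 6 were lower, or 4 after quantile normalization. The sum over 10 measured adipocyte genes was 2609 to 15878 against 2825 to 3090, which overlap. Under the limit for dim genes lay 2 of 5 blood markers with vehicle and 3 with E2, 1 of 10 adipocyte markers with vehicle and 5 with E2, and 4 of 14 macrophage markers with vehicle and 2 with E2. Sums of the 27 endothelial markers were 8097 to 15783 with vehicle and 8124 to 9986 with E2, which also overlap. The part of these shifts in the results for the 10 genes was not tested.

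Estradiol was also compared within rats given 3-MC, where E2+3-MC minus 3-MC shares no rat with E2 minus vehicle. Cdh5, Tek, Kdr, Flt1, Emcn and Vegfa were again lower in all 3 rats given estradiol than in all 3 not given it, and Plvap was higher in all 3. That is 6 genes downward, against 11.6% of all genes, and 1 upward, against 25.7%. In limma's test on the deposited scale 0 of the 10 passed, where 1.39% of all genes were called lower. Unadjusted p was under 0.05 for 6 of the 10 and for 20% of all genes. After quantile normalization the same 6 genes were called lower, where 12.5% of all genes were.

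The sizes were -0.65 ± 0.23 (SE, adjusted p = 0.109) for Cdh5, -0.58 ± 0.22 (adjusted p = 0.130) for Tek and -0.58 ± 0.23 (adjusted p = 0.150) for Kdr. Flt1 differed by -0.54 ± 0.21 (adjusted p = 0.151), Emcn by -0.50 ± 0.18 (adjusted p = 0.110) and Vegfa by -0.40 ± 0.18 (adjusted p = 0.231). Plvap differed by 0.42 ± 0.21 (adjusted p = 0.279). Vehicle rat 1 is in neither group but enters the estimate of spread that all groups share. Without it these differences kept their size, and 6 genes passed: Cdh5 (adjusted p = 0.00257), Kdr (0.00783), Tek (0.0137), Emcn (0.0143) and Flt1 (0.0173) lower, and Plvap (0.0403) higher. In that fit 4.3% of all genes were called lower and 17.1% higher. After quantile normalization the 6 lower genes differed by -0.60 (Vegfa) to -0.90 (Cdh5), and Plvap by 0.37 (adjusted p = 0.0928).

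Cldn5 and Angpt2 overlapped between these groups. Cldn5 differed by -0.04 ± 0.26 (SE, 95% interval -0.59 to 0.52) on the deposited scale and by -0.22 after quantile normalization. Angpt2 differed by -0.12 ± 0.19 (95% interval -0.53 to 0.29), and Pecam1 by -0.13 ± 0.24. The median over the 10 genes was -0.45, against 0.08 for all genes, or -0.62 against -0.03 after quantile normalization.

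**Figure D2:**
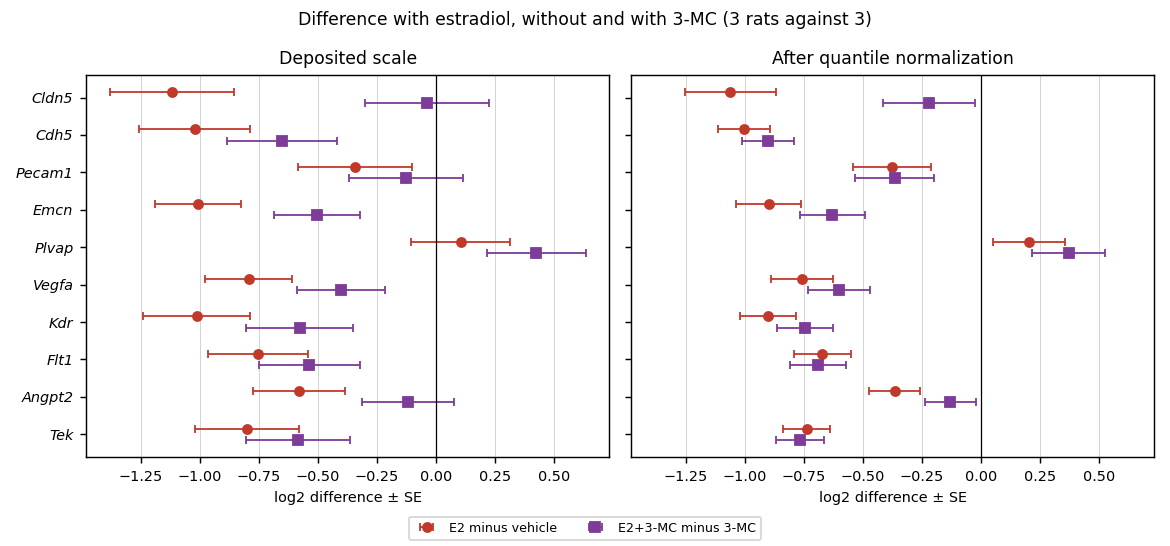
Log2 difference with estradiol for each gene, in rats not given 3-MC (circles) and in rats given 3-MC (squares), on the deposited scale (left) and after quantile normalization (right). Bars are ± SE of limma's fit, with 3 rats against 3. Cldn5 lies at -1.12 without 3-MC and -0.04 with it on the left, while Plvap lies right of 0 in all 4 cases.

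Of the pathway genes, Dll4 (-0.88 ± 0.24) was called lower here too, and Erg (-0.71 ± 0.22, adjusted p = 0.0611) and Tie1 (-0.54 ± 0.20, adjusted p = 0.128) were not. Angpt1 differed by 0.08 ± 0.19 and Vegfb by -0.07 ± 0.21. Of the 27 further endothelial markers, Cyyr1 (-1.11 ± 0.18) was lower and Cd34 (1.02) higher on the deposited scale. After quantile normalization 13 were lower and 2 higher. Epithelial markers were higher for 8 of 13, with sums of 4288 to 5708 in the 3-MC rats and 9317 to 17759 in the E2+3-MC rats, and macrophage markers for 6 of 12, where 6.82% of all genes were called higher. No blood marker of the 3 was called.

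The interaction, the estradiol difference with 3-MC minus that without, passed for 0 of the 10 genes, and for 0% of all genes. The unadjusted p was under 0.05 for 1 of the 10, Cldn5, and for 2.93% of all genes. Its interaction was 1.08 ± 0.37 (SE, 95% interval 0.29 to 1.86, adjusted p = 0.977). With quantile-normalized arrays it was 0.84 (adjusted p = 0.844). Over all genes the median interaction was 0.19 on the deposited scale and 0.00 after quantile normalization. For Angpt2 the interval ran from -0.11 to 1.04, and for Flt1 from -0.42 to 0.85. A difference in the estradiol response of these genes between rats with and without 3-MC was not detectable with 3 rats per group.

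3-MC alone changed none of the 10 genes beyond the test, and 0% of all genes were called. Unadjusted p was under 0.05 for 1 of the 10 genes and for 0.808% of all genes. That gene was Plvap, whose 3 rats given 3-MC (159.9, 168 and 144) lay below the 3 vehicle rats (320.1, 179 and 185), a downward separation that 0.542% of all genes showed. It differed by -0.45 ± 0.21 (SE, adjusted p = 1.00). Cldn5 differed by -0.46 ± 0.26 with overlapping rats, and Kdr by -0.02 ± 0.23 (95% interval -0.50 to 0.45).

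With 3-MC added to estradiol, E2+3-MC minus E2, again 0 of the 10 genes and 0% of all genes were called, with unadjusted p under 0.05 for 2 of the 10 and for 9.23% of all genes. Cldn5 (0.62 ± 0.26), Angpt2 (0.53 ± 0.19), Kdr (0.42 ± 0.23), Emcn (0.33 ± 0.18), Vegfa (0.30 ± 0.18) and Cdh5 (0.26 ± 0.23) were higher in all 3 rats given both than in all 3 given E2. That is 6 of 10, against 16.7% of all genes. After quantile normalization Angpt2 was separated upward, 1 of 10 against 9.58% of all genes, and Flt1 (-0.25) downward, 1 of 10 against 13% of all genes. This comparison shares the E2 rats with the first, so the values are not independent of it. The average 3-MC effect over rats with and without estradiol likewise passed for 0 of the 10 and for 0% of all genes.

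Against vehicle, the rats given both compounds were called lower for Flt1 (-0.82 ± 0.21, adjusted p = 0.0220), Tek (-0.79 ± 0.22, adjusted p = 0.0340) and Emcn (-0.68 ± 0.18, adjusted p = 0.0265). These are 3 of 10 where 1.78% of all genes were called lower. After quantile normalization 7 were called, where 13.3% of all genes were: these 3 with Cdh5, Kdr, Vegfa and Cldn5. The 3 calls rested on few rats: without E2+3-MC rat 1, 2 or 3 the count was 0, 1 and 1, and without vehicle rat 3 it was 5. Angpt2 differed by -0.05 ± 0.19 and Plvap by -0.02 ± 0.21.

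Averaged over rats with and without 3-MC, 6 against 6, estradiol lowered 7 of the 10 genes, where 10.6% of all genes were called lower. Cdh5 fell by 0.84 ± 0.17, Kdr by 0.79 ± 0.16, Emcn by 0.75 ± 0.13, Tek by 0.69 ± 0.16, Flt1 by 0.64 ± 0.15, Vegfa by 0.60 ± 0.13 and Cldn5 by 0.58 ± 0.19. The call for Cldn5 was kept in 5 of the 12 fits that left out 1 rat, with adjusted p from 0.00777 to 0.0850, and the others in all 12. Angpt2 (-0.35 ± 0.14, adjusted p = 0.0711), Pecam1 (-0.23 ± 0.17, adjusted p = 0.342) and Plvap (0.27 ± 0.15, adjusted p = 0.207) did not pass. After quantile normalization 9 of the 10 were lower, where 24.9% of all genes were, and Plvap was higher by 0.29 (adjusted p = 0.0417), where 23.2% of all genes were.

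The level of each gene was next taken relative to the mean of the 27 other endothelial markers on the same array, which does not depend on that array's overall scale. Its size compares nothing between probe sets, and only its change between groups is read. Cdh5 was 1.08, 0.82 and 0.89 relative to these markers in the vehicle rats, 0.33, 0.42 and 0.25 with E2, 0.92, 0.87 and 1.10 with 3-MC, and 0.38, 0.50 and 0.43 with both. Plvap was -0.47, -0.53 and -0.44 with vehicle, -0.23, 0.32 and 0.07 with E2, -0.85, -0.60 and -0.91 with 3-MC, and -0.13, -0.35 and -0.23 with both. The rats given estradiol were thus the lower 6 for Cdh5 and the higher 6 for Plvap, vehicle rat 1 included.

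**Figure D3:**
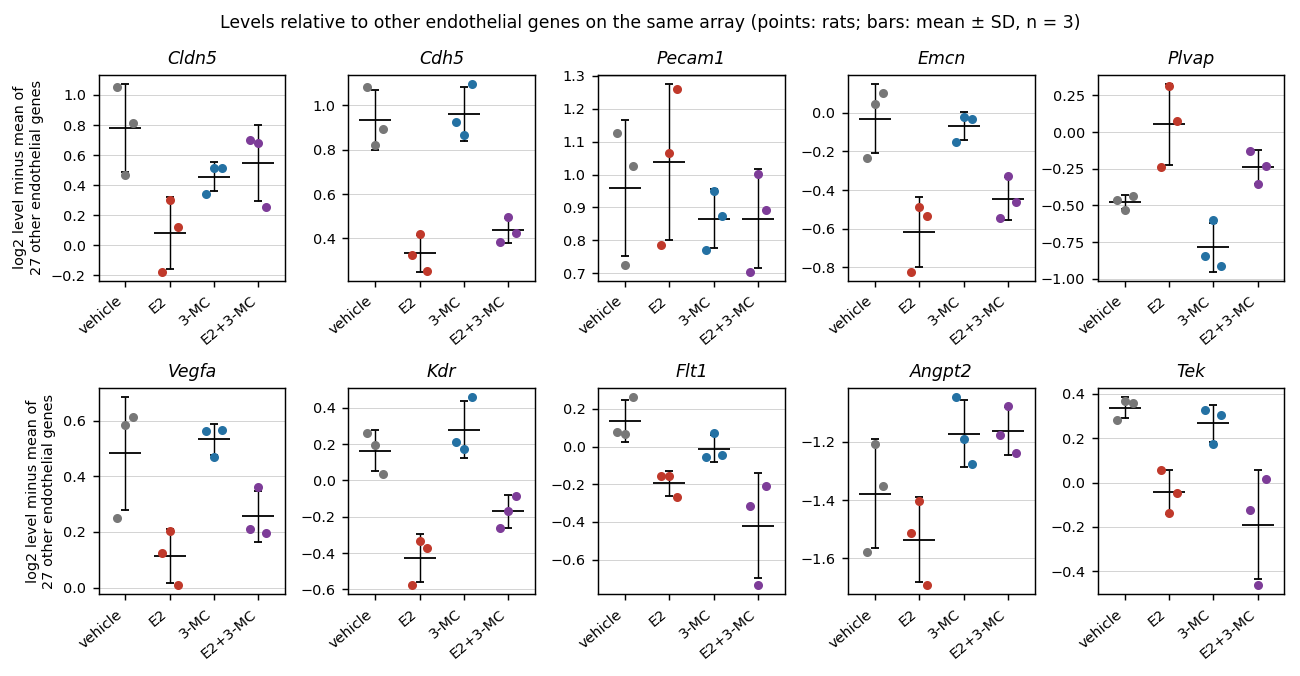
Level of each gene in each rat relative to the mean of 27 other endothelial markers on the same array (log2). Points are rats and bars give the mean ± SD of 3 rats. Cdh5, Emcn, Kdr and Tek sit lower in both groups given E2, and Plvap sits higher in both.

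With labels exchanged within the strata of 3-MC, a two-sided exact permutation test of 400 relabellings gave p = 0.005, the smallest it can give, for the average E2 effect on 7 of the 10 genes. It was not run over all genes, so no share from this test can be set beside that count. The relative level fell by 0.56 for Cdh5, 0.52 for Kdr, 0.48 for Emcn, 0.42 for Tek, 0.37 for Flt1 and 0.32 for Vegfa. For Plvap it rose by 0.54. The exact p was 0.145 for Cldn5 (-0.30), 0.385 for Angpt2 (-0.07) and 0.67 for Pecam1 (0.04). In limma's test of the same relative levels over all 10154 genes the same 7 genes were called, with adjusted p from 9.15e-05 (Cdh5) to 0.00847 (Vegfa). Relative to these markers 6.15% of all genes were called lower, as were 6 of the 10, and 46.6% were called higher, as was Plvap. The markers themselves are not carried by endothelium alone. For the average E2 effect 12 of the 27 were called lower and 2 higher, with a median of -0.36. After quantile normalization 15 were lower and 3 higher. A relative level also carries this change of the markers. Plvap itself differed by 0.27 ± 0.15 (SE, limma adjusted p = 0.207) on the deposited scale.

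For Cldn5 the relative difference with E2 was -0.70 without 3-MC and 0.09 with it, and its interaction in this fit was 0.78 ± 0.25 (SE, adjusted p = 0.914). For Plvap the corresponding estradiol differences were 0.53 and 0.55, and for Cdh5 -0.60 and -0.53. In the same relative fit, 3-MC effects on the 10 genes all had an adjusted p of 0.504 or above. The exact p for 3-MC was lowest for Angpt2 (0.29, p = 0.01), Plvap (-0.30, p = 0.02), Flt1 (-0.19, p = 0.025) and Kdr (0.19, p = 0.035), out of 10 genes tested.

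In 4 pairs, 2 genes were compared on the same array, each tested for E2 and for 3-MC. Angpt2 minus Tek, a ligand against its receptor, was -1.86, -1.58 and -1.71 with vehicle, -1.57, -1.27 and -1.65 with E2, -1.37, -1.36 and -1.58 with 3-MC, and -1.05, -0.61 and -1.26 with both. The rats given both lay above all others, and the other 3 groups overlapped or touched. The difference rose by 0.34 with E2 and by 0.40 with 3-MC (exact permutation p = 0.01 for each, adjusted p = 0.04 over the 8 tests). The E2 mean of Angpt2 lay under the limit for dim genes (6.40 against 6.44), and the part of this in the rise was not tested. Leaving out 1 rat kept the call for E2 in 4 of 12 cases and that for 3-MC in 6 of 12, and with an offset of 1 the adjusted p for E2, over the 4 pairs, was 0.133.

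Flt1 minus Kdr was -0.18, -0.13 and 0.22 with vehicle, 0.42, 0.17 and 0.10 with E2, -0.27, -0.10 and -0.50 with 3-MC, and -0.05, -0.57 and -0.13 with both. Rats given 3-MC were lower, by 0.37 on average (exact permutation p = 0.015, adjusted p = 0.04 over the 8 tests), with some overlap, and leaving out 1 rat kept the call in 5 of 12 cases. After quantile normalization the adjusted p for 3-MC, over the 4 pairs, was 0.06 for this pair and for Angpt2 minus Tek. Vegfa minus Kdr changed by 0.20 with E2 (exact p = 0.105) and Cldn5 minus Pecam1 by -0.34 (exact p = 0.075). The latter was -0.96, -0.77 and -1.13 in the E2 rats, below all 9 other rats, the lowest of which was at -0.64.

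**Figure D4:**
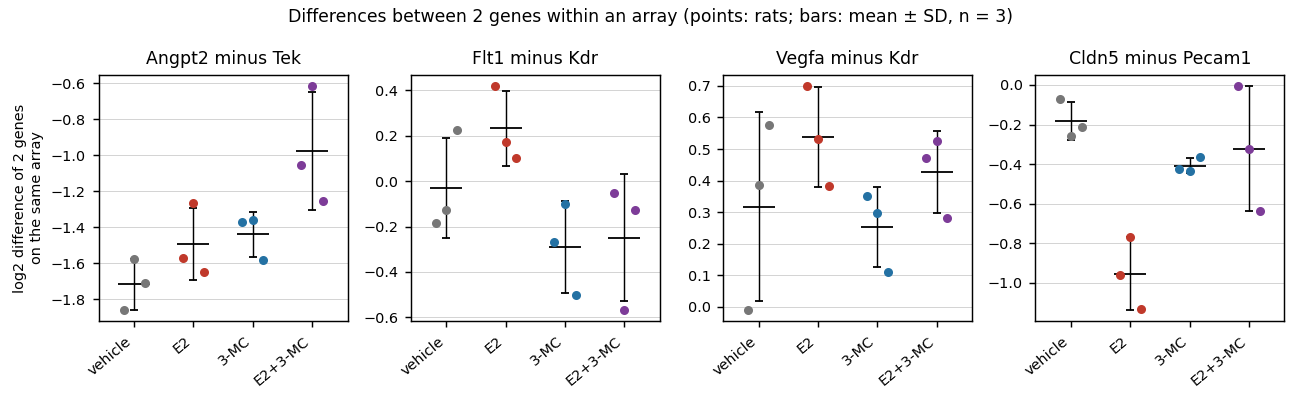
Difference in log2 level between 2 genes on the same array for 4 pairs, by treatment group. Points are rats and bars give the mean ± SD of 3 rats. Angpt2 minus Tek is highest in the rats given both compounds, and Cldn5 minus Pecam1 is lowest in the 3 E2 rats.

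Finally, the genes whose levels over the 12 arrays were most like each of the 10 were listed by Pearson correlation after quantile normalization, as a description in which all points share the 4 treatments. Some of the 10 were close to each other: Kdr was like Cdh5 (r = 0.975) and Flt1 was like Tek (r = 0.955). The closest gene to Cdh5 was Dhrs3 (r = 0.995), to Emcn Cst3 (r = 0.981), to Vegfa Snhg11 (r = 0.982), to Kdr Fam149b1 (r = 0.985), to Flt1 Chrm3 (r = 0.956) and to Tek Fxyd4 (r = 0.984). For Cldn5 it was Zdhhc1 (r = 0.960), for Pecam1 Klc4 (r = 0.941), for Angpt2 Nup98 (r = 0.941) and for Plvap Golga7 (r = 0.954).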

How the data were processed

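Uterine RNA of 12 rats was measured on 1 array each. Per the submitters' processing notes, the authors made the deposited intensity values with Affymetrix Expression Console and PLIER, from biotinylated cRNA per the labels' protocols. The sources used here give neither their versions nor a step that brings arrays to a common scale. Of 29214 probe sets, 15310 had 1 gene symbol in the platform annotation, 323 had several and 13581 had none. For 527 genes with several probe sets, the one with the highest mean log2 value was used. After adding 16 and taking log2, genes in the dimmest 30% by mean were left out, and limma 3.58.1 in R 4.3.3 fitted 1 mean per group over all arrays with Benjamini-Hochberg adjustment over 10154 genes. The script was tested on simulated data with known differences. Precision is limited by having 3 arrays per group.

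The 10 genes and the 18 gene lists were chosen with earlier results of these data known. All 10 genes are named whatever their result. From each list up to 4 called genes with the largest difference in E2 minus vehicle are named, with their values in the other comparison where useful, and for each of the 10 the genes with the highest correlation. Erg, Angpt1, Cd34 and other genes in the comparison within 3-MC were picked after their values were seen. Relative levels and pairs were tested by exact permutation of labels within strata. Alternatives were quantile normalization, median centring, an offset of 1, no filter on dim genes, the mean of probe sets, limma's trend and robust options, a replicate block, fits of only the groups compared and leaving out each rat. Quantile normalization together with leaving out each rat, and limma's test of relative levels over all genes, were added after the data were seen. No 2 arrays were identical. E2 minus vehicle and E2+3-MC minus 3-MC share no rats; the other comparisons share groups with them.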

Additional observations from a re-analysis of the deposited data

How the results depend on the processing

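No difference of any of the 10 genes that was called in either setting changed sign under the alternatives run. With E2 against vehicle, 8 of the 10 genes were called, 4 when only these 2 groups were fitted and 5 to 8 when 1 rat was left out. Within rats given 3-MC, 0 were called on the deposited scale, 6 after quantile normalization, 6 when only these 2 groups were fitted, 1 after median centring and 1 with a replicate block. Leaving out 1 rat gave 0 to 6 there, the 6 without vehicle rat 1, and 6 to 7 after quantile normalization. For E2+3-MC against vehicle, 3 were called, 7 after quantile normalization, 6 after median centring and 0 when only these 2 groups were fitted, and leaving out 1 rat gave 0 to 5. The average E2 effect gave 7 calls, and 6 to 8 without 1 rat. Shares over all genes are not given for most of these alternative fits, so their counts cannot be set against all genes. A fit of 2 groups has 4 residual degrees of freedom in place of 8. The cause of the shifts in these counts was not tested. Rat numbers were not treated as pairs in the main fit. The correlation of deviations from group means between same-numbered rats had a median of 0.086 over 18 pairs, from -0.27 to 0.24. Between different-numbered rats it had a median of -0.051 over 36 pairs, from -0.44 to 0.39. These ranges overlap and do not settle whether same-numbered rats shared a batch. The replicate block gave 8 calls with E2 against vehicle. At the spread of these arrays, 3 rats per group gave a median SE of 0.22 over all genes, and 0.31 for the interaction.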
